A study of Mus musculus with 9 samples.

Results

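The genes followed here are a small set whose RNA is high in embryonic tissue and declines as the animal matures: Hmga2, Lin28a, Lin28b, Igf2bp1, Igf2bp2, Igf2bp3 and Trim71. The members were all probe sets that the platform annotation gives to 1 of these 7 symbols alone, which gave 19 probe sets of 6 genes among 45037 probe sets and 18193 genes named alone in the whole series. Hmga2 had 4 probe sets, Lin28a 2, Lin28b 1, Igf2bp1 4, Igf2bp3 6 and Trim71 2. Igf2bp2 was not analysed here.

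Terminal colon RNA from mouse embryos was hybridised to 9 Affymetrix MOE430 version 2 arrays, with 3 arrays per genotype. Ednrb null embryos (arrays 29, 37 and 41) carried a lacZ allele on both copies of Ednrb, the gene of endothelin receptor B, and are called the null. Ednrb NCC null embryos (arrays 2, 5 and 6) are titled Ednrb-FLEX and described as mutant for Ednrb in NCC cells, an abbreviation the labels do not spell out; they are called the NCC null. The third group was wild type (arrays 1B, 1C and 1D). All samples were labelled embryonic day 14, and the series text gives day 14.5. The labels name neither the Cre driver of the NCC null nor the strain, and do not say whether an array came from 1 embryo or a pool. The p-values therefore measure only the spread between these arrays, part of which may be technical. Whether developmental stage differed between the genotypes is the question these genes address, since a group of younger or older embryos would be expected to differ in them whatever its genotype.

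The members belong to a single regulatory circuit. Lin28a and Lin28b are RNA-binding proteins that block maturation of the let-7 microRNAs, and let-7 in turn silences Hmga2, Lin28, Igf2bp and Trim71 messages through sites in their 3' ends. As let-7 accumulates during development these messages decline. Hmga2 is a chromatin protein that bends AT-rich DNA and promotes growth and self-renewal of fetal progenitors, the Igf2bp proteins bind and stabilise growth-related messages such as Igf2, and Trim71 is a ubiquitin ligase and RNA-binding repressor, first known as lin-41 in the worm.

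The arrays did not measure mature microRNAs. The let-7 sequences are shown because their shared seed, bases 2 to 8 in capitals, is what joins the members into 1 group. In RefSeq (GRCm38.p6), all 9 mouse let-7 and miR-98 names ending in 5p carried the same seed, which 11 of 1679 mature mouse names in that table share.
mmu-let-7a-5p: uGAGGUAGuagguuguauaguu
mmu-let-7b-5p: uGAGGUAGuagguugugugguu
mmu-let-7c-5p: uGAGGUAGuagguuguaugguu
mmu-let-7d-5p: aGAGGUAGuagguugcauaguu
mmu-let-7e-5p: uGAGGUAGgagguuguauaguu
mmu-let-7f-5p: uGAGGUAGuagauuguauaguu
mmu-let-7g-5p: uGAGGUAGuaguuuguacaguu
mmu-let-7i-5p: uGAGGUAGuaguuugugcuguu
mmu-miR-98-5p: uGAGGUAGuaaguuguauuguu
The names differ from one another only outside the seed.

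Values are log2 intensities, and a call is an adjusted p under 0.05 by limma with Benjamini-Hochberg adjustment over all 45037 probe sets. Array medians lay between 112 and 116 on the linear scale. Ednrb itself was 9.23, 9.40 and 8.77 in the null, 11.15, 11.32 and 11.04 in the NCC null and 11.08, 10.95 and 11.05 in wild type. Ednrb thus fell by 1.89 in the null against wild type (adjusted p = 2.88e-05), and the NCC null differed from wild type by 0.15 (adjusted p = 0.696). The 3' to 5' log2 ratio of the Actb control probe sets, a measure of RNA integrity, was 0.80 to 0.90 in the null, below all values of the NCC null (1.03 to 1.40) and wild type (1.08 to 1.32). In sex-linked genes 3 arrays stood apart. Y-linked probe sets averaged 3.98 on NCC null 2 and 4.82 on NCC null 6, against 6.41 on NCC null 5, 5.82 to 6.83 in the null and 5.74 to 6.77 in wild type. Xist was 6.70 on wild type 1C, against 11.60 to 14.07 on the other 8 arrays. The null arrays, NCC null 5 and wild type 1B and 1D therefore had high Xist together with Y-linked levels of 5.74 or more. What part sex had in the member values of wild type 1C was not tested. Both mesenchyme and epithelium were present, with mean levels of 7 markers of each at least 11.32 on every array. These markers are not particular to the colon. The 5 measured markers of position along the gut averaged 8.03 to 8.19 in the null, 8.24 to 8.48 in the NCC null and 7.94 to 8.23 in wild type. A level was judged against 28 probe sets of 18 genes of other tissues (such as retina, sperm and pancreas), which had a median of 4.54 and a 90th percentile of 6.58. Fewer cells of a type and less RNA per cell cannot be told apart in RNA of whole tissue.

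Hmga2 was strongly detected in the hindgut and was the member called between the mutants. It was higher in the null than in the NCC null on 3 of its 4 probe sets, by 1.51- to 2.16-fold, and the fourth had the same direction without passing the test. The wild type mean lay between those of the mutants on all 4 probe sets, though nearly level with the NCC null on the fourth (8.06 against 8.03). Neither mutant passed the test against wild type. On probe set 1450780_s_at, at the 99.3 percentile of all probe sets, Hmga2 was 13.81, 13.51 and 13.66 in the null, 13.12, 12.89 and 13.04 in the NCC null and 13.24, 13.67 and 13.16 in wild type. All 3 null arrays were above all 3 NCC null arrays, and wild type 1C was level with the null while 1B and 1D were close to the highest NCC null array.

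The means on that probe set were 13.66 ± 0.15 in the null, 13.02 ± 0.12 in the NCC null and 13.35 ± 0.27 in wild type (n = 3 each, ± SD). The null was 1.56-fold higher than the NCC null, a log2 difference of 0.64 (SE 0.14, 95% interval 0.34 to 0.94, adjusted p = 0.0246). Across all probe sets 4.41% were called in this comparison, 1.84% of them higher and 2.57% lower in the null as shares of all probe sets, and the members had 3 higher and 0 lower of 19. All 3 were Hmga2 probe sets, which read the same gene and are not independent.

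Probe set 1422851_at gave 13.71, 13.43 and 13.48 for Hmga2 in the null, 13.13, 12.77 and 12.94 in the NCC null and 13.20, 13.56 and 13.09 in wild type. The order of the arrays was close to that of the first probe set, and the null was higher than the NCC null by 0.59 (1.51-fold, adjusted p = 0.0377). Probe set 1450781_at gave Hmga2 at 12.14, 11.27 and 11.71 in the null, 10.56, 10.41 and 10.83 in the NCC null and 10.98, 11.70 and 10.55 in wild type. Here the difference between the mutants was 1.11 (2.16-fold, SE 0.28, 95% interval 0.50 to 1.72, adjusted p = 0.0481). The dimmest, 1446196_at, gave Hmga2 at 9.02, 8.57 and 8.61 in the null, 7.79, 8.24 and 8.06 in the NCC null and 8.08, 8.64 and 7.44 in wild type. Its 3 null arrays were again above all NCC null arrays, with a difference of 0.71 (SE 0.25, 95% interval 0.15 to 1.26, adjusted p = 0.166).

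**Figure D1:**
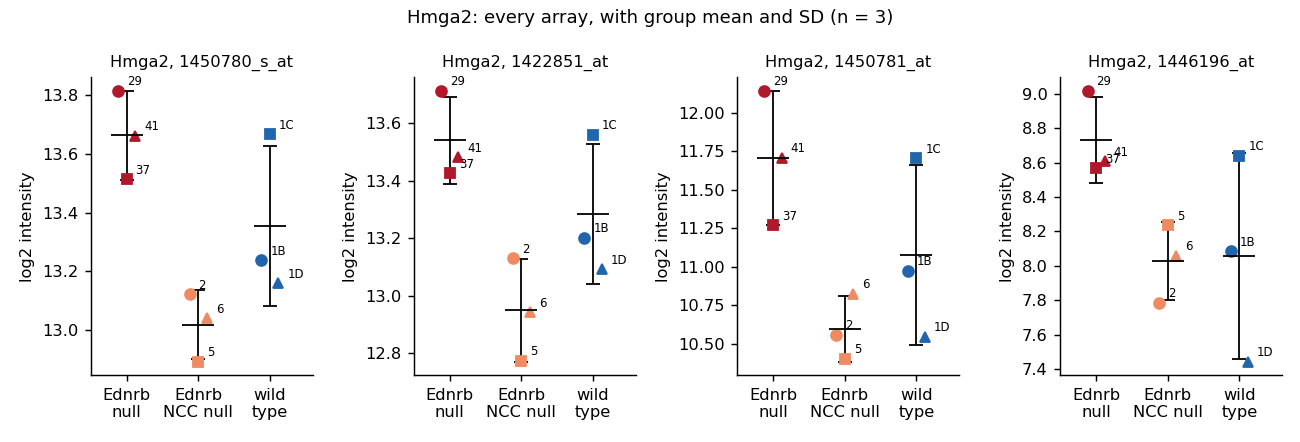
Log2 intensity of the 4 Hmga2 probe sets (one panel each, each with its own vertical range) on every array, with the group mean and SD (n = 3) as black bars. In every panel the null arrays lie above the NCC null arrays, and wild type 1C lies within the range of the null arrays while 1B and 1D lie lower.

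The call between the mutants was lost with either array-level covariate. With the Actb ratio in the model the difference on the brightest Hmga2 probe set was 0.70 (adjusted p = 0.274), and with the Y-linked level it was 0.67 (adjusted p = 0.0854). Both were slightly above the 0.64 of the main fit. Every null array had a lower Actb ratio than every other array, so the ratio and the null genotype cannot be cleanly told apart. Over all probe sets the calls went from 1984 to 283 with the Actb ratio and to 993 with the Y-linked level. Without NCC null 2 the Hmga2 call stayed (0.70, adjusted p = 0.0409). It was lost without null 29 (0.57, adjusted p = 0.112), null 41 (0.64, adjusted p = 0.0754), NCC null 5 (0.58, adjusted p = 0.0993) or NCC null 6 (0.65, adjusted p = 0.0793). The size of the difference stayed between 0.57 and 0.76 over all alternatives tried.

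Against wild type, the brightest Hmga2 probe set differed by 0.31 in the null (95% interval 0.01 to 0.61, adjusted p = 0.276) and by -0.34 in the NCC null (95% interval -0.64 to -0.03, adjusted p = 0.235). Both comparisons use the same 3 wild type arrays. The arrays of the null overlapped wild type through 1C, whereas those of the NCC null lay below all wild type arrays. On the other 3 Hmga2 probe sets the differences were 0.25, 0.63 and 0.68 in the null (adjusted p = 0.388, 0.267 and 0.182) and -0.34, -0.48 and -0.03 in the NCC null (adjusted p = 0.241, 0.435 and 0.972). Wild type 1C weighed on this comparison. Without it, the null was above wild type on the brightest probe set by 0.46 (adjusted p = 0.0481). The difference was 0.95 on 1450781_at (adjusted p = 0.0417), 0.97 on 1446196_at (adjusted p = 0.0223) and 0.39 on 1422851_at (adjusted p = 0.132). Leaving out 1B or 1D instead gave 0.25 and 0.21 on the brightest probe set (adjusted p = 0.575 and 0.505). On 1450781_at these gave 0.58 and 0.37 (adjusted p = 0.516 and 0.53), and on 1446196_at 0.69 and 0.37 (adjusted p = 0.354 and 0.38).

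Because Hmga2 carried the difference, the 250 bases before its RefSeq start are shown, at chr10:120476470-120476719 on the minus strand of GRCm38.p6, with every CTCTCTCT in capitals.
Hmga2 promoter: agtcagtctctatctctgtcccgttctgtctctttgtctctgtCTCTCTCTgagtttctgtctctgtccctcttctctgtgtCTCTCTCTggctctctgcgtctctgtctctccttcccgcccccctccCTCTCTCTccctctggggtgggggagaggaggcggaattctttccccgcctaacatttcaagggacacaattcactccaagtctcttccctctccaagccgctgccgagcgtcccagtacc
The repeat occurs at 3 places. CTCTCTCT, searched on both strands together with its complement AGAGAGAG, was present in 4.37% of 32851 RefSeq promoter windows of 300 bases, and among the members with a window (6 of 7 genes) in that of Hmga2 alone. GGGCGG or its complement CCGCCC was in the windows of Hmga2, Igf2bp2, Lin28a and Trim71 and in 35.7% of all windows. CACGTG was in those of Igf2bp3 and Lin28b and in 7.15% of all, and TATAAA or TTTATA in 0 of the 6 and in 13.6% of all. These are matches of letters only.

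Lin28a and Lin28b, the upstream blockers of let-7, were at the level of genes of other tissues in all groups. Lin28a on 1421749_at was 4.10, 4.10 and 4.32 in the null, 3.96, 4.10 and 4.10 in the NCC null and 4.10, 4.09 and 4.14 in wild type, at the 11.0 percentile of all probe sets. Its other probe set, 1437752_at, was 3.67, 3.69 and 4.28 in the null, 3.93, 3.72 and 3.73 in the NCC null and 3.50, 3.50 and 3.83 in wild type. Lin28b on 1430803_at was 2.98, 3.19 and 3.0 in the null, 3.02, 3.0 and 3.19 in the NCC null and 2.94, 2.92 and 3.0 in wild type, at the 0.768 percentile. All 3 probe sets were under the 6.58 of the other-tissue genes, so they give no measure of whether either gene differed. The fitted differences of the brightest probe set of Lin28a and of Lin28b were within 0.12 of 0 in each comparison, with adjusted p from 0.578 to 0.963.

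Igf2bp1 and Igf2bp3, the RNA-binding proteins of the set, were well above that level and passed no test. Igf2bp1 on 1455223_at was 10.35, 10.11 and 10.28 in the null, 10.01, 10.05 and 10.10 in the NCC null and 10.11, 10.63 and 9.97 in wild type. The null was narrowly above all NCC null arrays, by 0.19 (95% interval -0.13 to 0.52, adjusted p = 0.588), and wild type 1C was the highest of the 9. Against wild type, Igf2bp1 differed by 0.01 in the null (95% interval -0.32 to 0.34, adjusted p = 0.985) and by -0.18 in the NCC null (95% interval -0.51 to 0.14, adjusted p = 0.613).

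The Igf2bp1 probe set 1418761_at had the widest gap between the mutants, at 9.24, 8.90 and 9.07 in the null, 8.68, 8.76 and 8.79 in the NCC null and 8.87, 9.41 and 9.01 in wild type. The NCC null lay below all arrays of both other groups, with a difference of 0.33 for the null against the NCC null (adjusted p = 0.243) and of -0.35 for the NCC null against wild type (adjusted p = 0.204). The remaining Igf2bp1 probe sets, 1459825_x_at and 1449210_at, had differences of 0.21 and 0.23 between the mutants (adjusted p = 0.424 and 0.559), with overlapping arrays. All 4 Igf2bp1 probe sets were therefore higher in the null than in the NCC null by 0.19 to 0.33, and 0 were called.

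Igf2bp3 on 1422610_s_at was 11.80, 11.55 and 11.58 in the null, 11.63, 11.38 and 11.68 in the NCC null and 11.39, 11.70 and 11.48 in wild type. The groups overlapped throughout, with means of 11.65 ± 0.13 in the null, 11.57 ± 0.16 in the NCC null and 11.52 ± 0.16 in wild type (n = 3 each, ± SD). The 95% interval of the difference between the mutants was -0.18 to 0.34 on this probe set. Its other 5 probe sets differed between the mutants by 0.05 to 0.22 with overlapping arrays in each comparison. The widest of their intervals was that of 1453957_a_at, from -0.36 to 0.79, which includes a difference of the size called for Hmga2. Without wild type 1C, 1 of them, 1453957_a_at, was higher in the null than in wild type by 0.67 (adjusted p = 0.0483), against 0.32 with all arrays (adjusted p = 0.597). No other alternative called this probe set.

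Trim71 had lower values in the null than in the other groups, without passing the test. Its brighter probe set, 1453599_at, was 7.05, 6.74 and 6.68 in the null, 6.99, 7.14 and 7.60 in the NCC null and 7.02, 7.54 and 7.14 in wild type. Null arrays 37 and 41 were the lowest of the 9, and null 29 overlapped both other groups. The difference of the null was -0.41 against the NCC null (adjusted p = 0.257) and -0.41 against wild type (95% interval -0.80 to -0.02, adjusted p = 0.260). The second probe set, 1456673_at, had Trim71 at 6.38, 6.38 and 6.33 in the null, 6.54, 6.61 and 6.54 in the NCC null and 6.48, 6.84 and 6.93 in wild type. All null arrays were below both other groups there, by 0.39 on the log2 scale against wild type (SE 0.11, 95% interval of the difference -0.63 to -0.14, adjusted p = 0.0817), the smallest adjusted p of any member against wild type. It passed without wild type 1B (-0.52, adjusted p = 0.0105) but not without 1C (-0.34, adjusted p = 0.182) or 1D (-0.30, adjusted p = 0.199). Trim71 was dim on this probe set. Its means of 6.36 in the null and 6.56 in the NCC null were under the 6.58 that marks the 90th percentile of the other-tissue genes. Only the wild type mean, 6.75, was above it, and the probe set counted as above that level through wild type alone. These values therefore give no reliable size for its fall in the null.

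**Figure D2:**
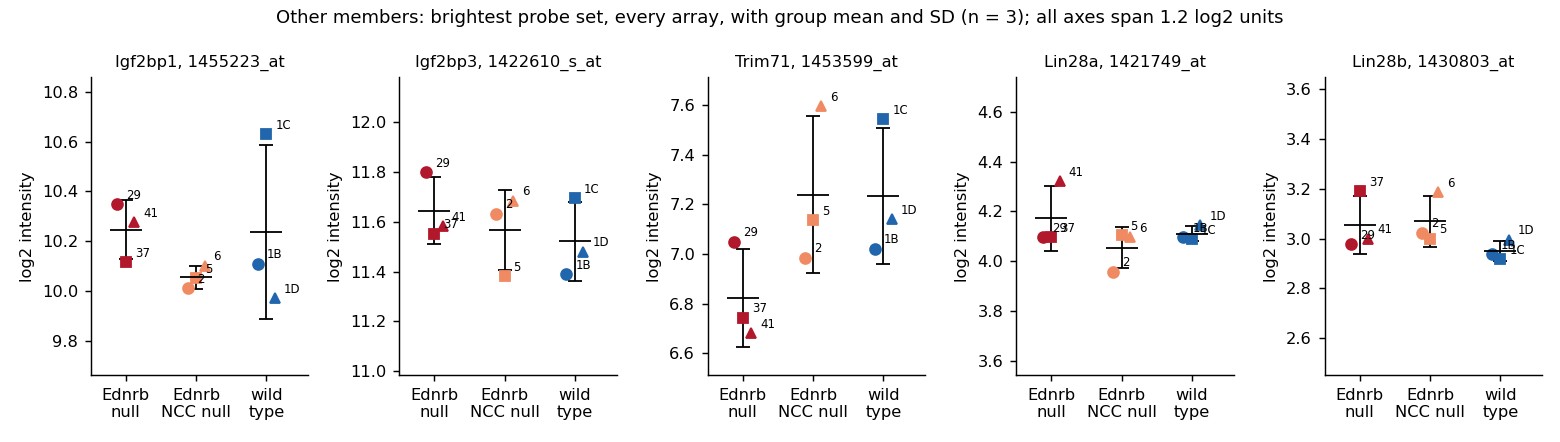
Log2 intensity of the brightest probe set of Igf2bp1, Igf2bp3, Trim71, Lin28a and Lin28b on every array, with group mean and SD (n = 3) as black bars and every vertical axis spanning 1.2 log2 units. The groups overlap in most panels, wild type 1C is the highest array for Igf2bp1, and Lin28a and Lin28b lie at the level of genes of other tissues.

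Counted over the 19 member probe sets, 16 were higher and 3 lower in the null than in the NCC null, with a median difference of 0.19 against 0.02 over all probe sets. Arrays of these groups did not overlap for 6 members higher and 1 lower in the null, where 12% and 9.28% of all probe sets did so. Against wild type, the null had 15 members higher and 4 lower (median 0.12, all probe sets 0.03), with 0 called by limma where 5.03% of all probe sets were (2.51% higher and 2.52% lower). Its arrays lay apart from wild type for 0 members higher and 1 lower, where 12.7% and 7.93% of all probe sets did so. Among the 19, 5 had an unadjusted p under 0.05, where 17.3% of all probe sets did. The NCC null had 8 higher and 11 lower than wild type (median -0.03, all probe sets 0.01), with 0 called where 3.58% of all were (2.06% higher and 1.51% lower), with arrays apart for 1 higher and 2 lower where 11.6% and 7.76% of all probe sets were, and 4 at an unadjusted p under 0.05, where 17% of all were. Only Hmga2 had any called probe set in these 3 comparisons over all 9 arrays. The 1 member whose NCC null arrays all lay above wild type was Lin28b, at the level of genes of other tissues. Without the 3 probe sets of Lin28a and Lin28b, 14 members were higher and 2 lower in the null than in the NCC null. Against wild type, 12 were then higher and 4 lower in the null, and 6 higher and 10 lower in the NCC null. The 19 probe sets read 6 genes, so these counts are not of independent members.

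**Figure D3:**
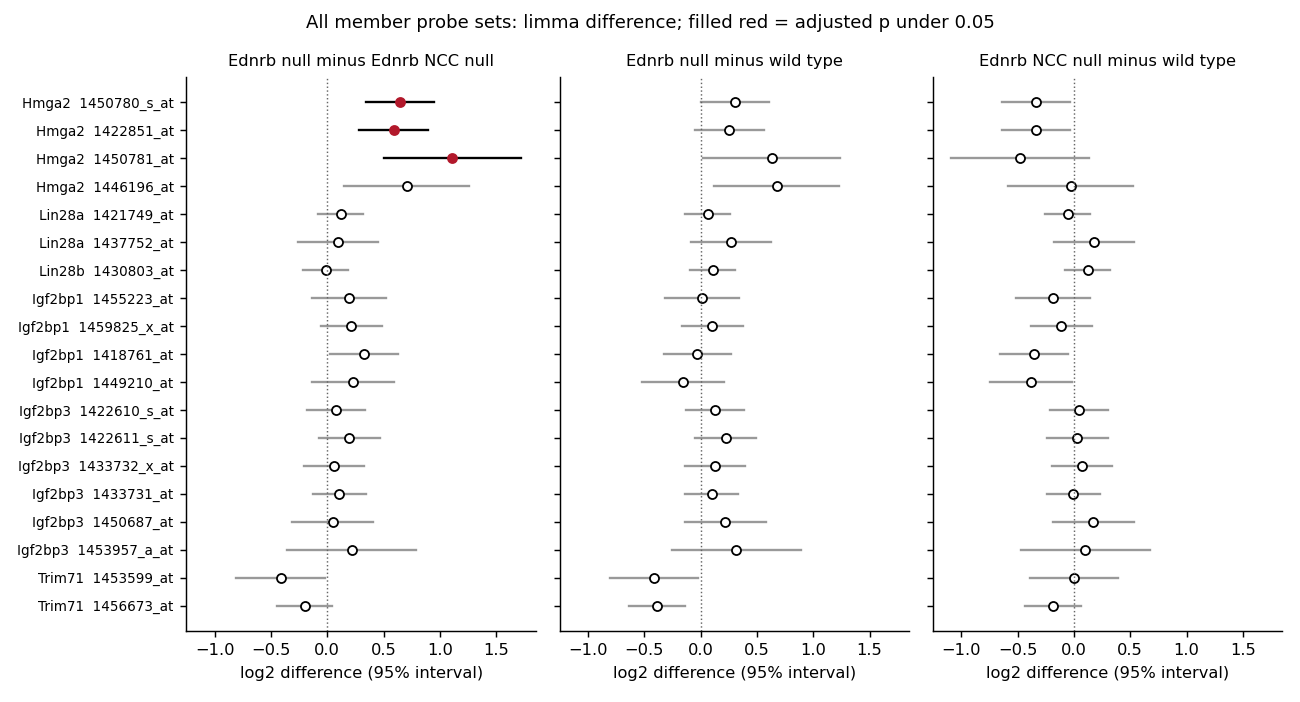
Log2 difference (horizontal axis) with its 95% interval for each of the 19 member probe sets, for the null minus the NCC null, the null minus wild type and the NCC null minus wild type. Filled red points mark the 3 Hmga2 probe sets with an adjusted p under 0.05, all in the first panel, and the Trim71 points lie on the negative side in the first 2 panels.

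Within groups, single arrays moved several members together. Over the 16 member probe sets of Hmga2, Igf2bp1, Igf2bp3 and Trim71, null 29 was among the highest 2 of the 9 arrays in 12, and wild type 1C also in 12. Among the 22518 probe sets brighter than the median, these arrays held such a place in 30.4% and 21.7%. NCC null 5 was the lowest array in 7 of the 16 and wild type 1D in 5. No share over all probe sets was computed for these counts, so they cannot be judged against it. Among the 22518 brighter probe sets, NCC null 5 was the highest array in 5.97% and wild type 1D in 9.81%. Their median deviations from the 9-array mean there were -0.031 and -0.0029, so NCC null 5 was somewhat low in general. The 16 probe sets read 4 genes and are not independent. Of these, Trim71 1456673_at was above the other-tissue level only in the wild type mean. Averaged over its probe sets, Hmga2 deviated from its 9-array mean by 0.67, 0.19 and 0.36 in the null, by -0.35, -0.42 and -0.28 in the NCC null and by -0.13, 0.39 and -0.44 in wild type. Wild type 1C was high in all 4 genes, at 0.39 for Hmga2, 0.34 for Igf2bp1, 0.19 for Igf2bp3 and 0.36 for Trim71, whereas null 29 was high in Hmga2, Igf2bp1 and Igf2bp3 and at -0.12 in Trim71.

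**Figure D4:**
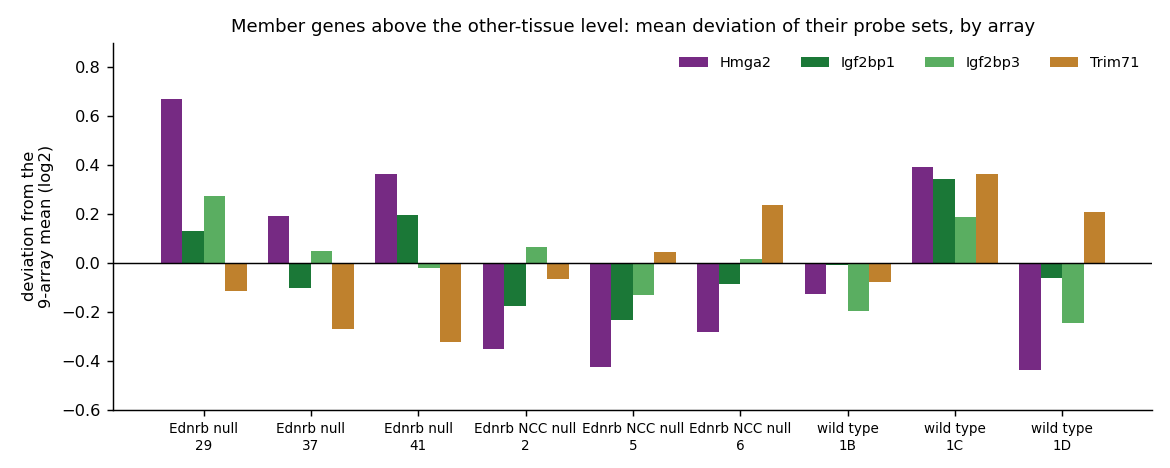
Deviation of Hmga2, Igf2bp1, Igf2bp3 and Trim71 from their 9-array mean on the log2 scale, averaged over the probe sets of each gene, for each array. Hmga2 is positive on all null arrays and negative on all NCC null arrays, Trim71 is negative on all null arrays, and wild type 1C is positive in all 4 genes.

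Across the 9 arrays, which share their groups, Hmga2 correlated with Igf2bp1 at Pearson r = 0.759 and with Igf2bp3 at 0.602, and Igf2bp1 with Igf2bp3 at 0.568. Trim71 had r = -0.266 with Hmga2, 0.284 with Igf2bp1 and 0.277 with Igf2bp3. Among 3259 other genes brighter than the median with an SD of at least 0.2, those most like Hmga2 were Racgap1, a regulator of cell division (r = 0.981), Fndc3c1 (0.980) and Fam53b (0.978). Fam53b was higher in the null than in the NCC null by 0.63 (adjusted p = 0.0151), with Racgap1 at 0.45 (adjusted p = 0.0635) and Fndc3c1 at 0.63 (adjusted p = 0.0505). The nearest to Igf2bp1 were Flt1, a VEGF receptor (r = 0.987), 4930428B01Rik (0.909) and Asxl1 (0.887). The nearest to Igf2bp3 were Acacb (0.936), Dock9 (0.898) and Adam23 (0.895). The nearest to Trim71 were Atf6b (0.960), Blmh (0.933) and Cldn7, an epithelial tight junction protein (0.929), and Cldn7 fell by 0.85 in the null against the NCC null (adjusted p = 0.0300). All these genes were picked for following a member over the same 9 arrays. Their differences between the mutants, and the p-values given with them, largely follow from that choice and add no separate evidence.

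Of the machinery that makes and destroys let-7, 15 genes were measured on their brightest probe set, and 1 of them, Tut4, was called. Over all genes, 1.56% were called higher and 3.73% lower in the null against the NCC null, and 2.51% and 2.29% against wild type. Tut4 adds uridines to let-7 precursors held by Lin28. It was 11.60, 11.37 and 11.55 in the null, 10.95, 10.88 and 10.87 in the NCC null and 11.10, 11.19 and 10.87 in wild type, so that all null arrays were above both other groups. Tut4 was 1.52-fold higher in the null than in the NCC null (0.61, adjusted p = 0.00797) and 1.37-fold higher than in wild type (0.45, adjusted p = 0.0292), while its 4 other probe sets gave 0.01 to 0.60 and -0.25 to 0.44. Khsrp, which promotes let-7 maturation, was 11.32 in the null, 11.21 in the NCC null and 11.55 in wild type on average (adjusted p = 0.0946 for the NCC null against wild type). Xpo5, the exporter of precursors, differed by 0.25 between the mutants (adjusted p = 0.130), and Ago4, an Argonaute protein, by 0.21 (adjusted p = 0.170). The list's median difference was 0.11 between the mutants, 0.06 for the null and -0.13 for the NCC null, each set against wild type, beside 0.01, 0.04 and 0.02 over all 18193 genes.

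Other known let-7 targets were also measured. Of 22, 0 were called between the mutants by limma (1 in 6 of the alternatives), where the null had 1.56% of all genes higher and 3.73% lower (median of the list -0.01). Ccnd1, the cyclin that drives entry into the cell cycle, was 10.62, 10.81 and 10.84 in the null, 10.69, 10.66 and 10.73 in the NCC null and 11.22, 11.28 and 11.60 in wild type. It was lower than wild type in both mutants, by 0.61 on the log2 scale in the null (difference -0.61, adjusted p = 0.00832) and by 0.67 in the NCC null (difference -0.67, adjusted p = 0.00797). E2f2, a cell cycle transcription factor, fell by 0.37 in the null against wild type (adjusted p = 0.0436). These made 2 lower of 22 in the null and 1 lower in the NCC null against wild type, where 2.29% and 0.984% of all genes were lower. The count of 2 in the null was 0 when the fit held the Actb ratio. It was 1 with the Y-linked covariate, in a fit of only those groups, with the trend and robust variance model, and without any single array other than NCC null 2. Insr, the insulin receptor, and Igdcc3, also among the 4 of this list with the smallest p, differed from wild type by -0.21 and -0.25 in the null and by -0.27 and -0.23 in the NCC null (adjusted p from 0.161 to 0.335).

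Of the messages that Igf2bp proteins bind, 4 were measured and 0 were called in any comparison. Igf2, the fetal growth factor, was 14.15 ± 0.03 in the null, 14.25 ± 0.15 in the NCC null and 14.17 ± 0.12 in wild type (n = 3 each, ± SD). Its other probe set, not part of that count, differed from wild type by 0.29 in the null and 0.55 in the NCC null. Between the mutants that probe set differed by -0.26. Among 14 fetal growth and imprinted genes, 1 was called. Gpc3, a membrane proteoglycan that restrains growth, was 12.76, 12.68 and 12.68 in the null, 12.41, 12.28 and 12.33 in the NCC null and 12.12, 12.21 and 12.21 in wild type. It was higher in the null than in wild type by 0.53 (adjusted p = 0.00261) and than in the NCC null by 0.37 (adjusted p = 0.0253). In these comparisons 2.51% and 1.56% of all genes were called higher. None of the 11 measured proliferation genes was called by limma in any comparison.

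Genes with a developmental course of their own differed between the mutants in more than Hmga2. The embryonic globins, made by primitive red cells that are replaced as the fetus grows, had 2 of 3 genes higher in the null in both of its comparisons. Of all genes, 2.51% were higher in the null than in wild type and 1.56% than in the NCC null. Against wild type the globin count was 1 when the fit held the Actb ratio, without null 37 or without wild type 1B. Hbb-bh1 was 10.23, 10.49 and 10.30 in the null, 9.20, 9.20 and 9.21 in the NCC null and 7.89, 8.55 and 8.11 in wild type, with no overlap between any groups. It was 4.45-fold higher in the null than in wild type (adjusted p = 1.2e-05), 2.19-fold higher than in the NCC null (adjusted p = 0.00211) and 2.03-fold higher in the NCC null than in wild type (adjusted p = 0.00369). Hba-x was 11.98, 12.22 and 12.24 in the null, 11.28, 10.78 and 10.96 in the NCC null and 11.33, 11.62 and 11.13 in wild type. For Hba-x the groups stood in the same order as for Hmga2, with the null 2.21-fold above the NCC null (adjusted p = 0.00242), 1.73-fold above wild type (adjusted p = 0.0118) and the NCC null at -0.35 against wild type (adjusted p = 0.264). Hbb-y, the third embryonic globin, differed from wild type by 0.23 in the null and 0.04 in the NCC null (adjusted p = 0.359 and 0.905) and between the mutants by 0.19 (adjusted p = 0.491). The erythroid markers had 0 of 4 called, and their mean level was 7.02 on the lowest and highest null array, 6.82 to 7.31 in the NCC null and 6.80 to 6.94 in wild type. Of 7 measured genes of the adult globins and the globin switch, 1 was called. Myb, a factor of definitive blood progenitors, fell by 0.63 in the null against the NCC null (adjusted p = 0.00483), where 3.73% of all genes were lower. Myb averaged 9.35 in the null, 9.98 in the NCC null and 9.65 in wild type, the order also of the epithelium markers (11.51, 11.99 and 11.70). Which cells its RNA came from was not tested. Bcl11a, the repressor of embryonic globins, was at 0.44 between the mutants (adjusted p = 0.261).

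Genes that mark maturing colon epithelium were lower in the null than in the NCC null, with 7 of 12 called lower and 0 higher (median -0.56, all genes 0.01). Of all genes, 3.73% were lower and 1.56% higher. Lypd8, which keeps bacteria off the colon surface, was 7.45, 7.94 and 7.36 in the null, 9.48, 10.27 and 10.27 in the NCC null and 6.94, 7.15 and 8.01 in wild type. The NCC null arrays stood alone for Lypd8, at -2.42 for the null against the NCC null (adjusted p = 0.00121) and 2.64 for the NCC null against wild type (adjusted p = 0.000736). The goblet cell peptide Tff3 fell by 3.28 (adjusted p = 0.00596), the adhesion molecule Ceacam1 by 1.58 (adjusted p = 0.00744) and the brush border protein Vil1 by 1.21 (adjusted p = 0.00912) in the null against the NCC null. Against wild type the same list had 0 of 12 called in the null and 3 higher in the NCC null, where 2.92% of all genes were higher. That count of 3 was 1 with the Y-linked covariate and without NCC null 5, NCC null 6 or wild type 1B. It was 5 with only the brightest probe set of each gene tested, 5 without the dimmest 40% of probe sets and 6 at an adjusted p under 0.10, while in the null 1 gene was called lower in 5 of the alternatives. General epithelial markers moved with it: 4 of 7 were lower in the null than in the NCC null, with mean levels of 11.32 to 11.74 in the null, 11.89 to 12.10 in the NCC null and 11.66 to 11.72 in wild type. Of these 7, 1 was higher in the NCC null than in wild type. The part of the epithelial share in these differences was not tested.

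Among 12 genes of maturing smooth muscle, 2 were lower in the null than in the NCC null, where 3.73% of all genes were. The contractile regulator Cnn1 fell by 1.01 (adjusted p = 0.00226) and Tagln, an actin-binding protein, by 0.92 (adjusted p = 0.00960). Cnn1 also fell by 0.51 against wild type (adjusted p = 0.0497), the 1 call of this list there, where 2.29% of all genes were lower. The NCC null had 0 called against wild type. The smooth muscle myosin Myh11 was at -0.76 between the mutants (adjusted p = 0.0679) and Myocd, the coactivator that sets the programme, at 0.52 (adjusted p = 0.0828). With the Actb ratio as a covariate, 2 epithelial genes were called lower and 1 embryonic globin higher in the null than in the NCC null. The epithelial count was 4 without null 29 or without NCC null 5.

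**Figure D5:**
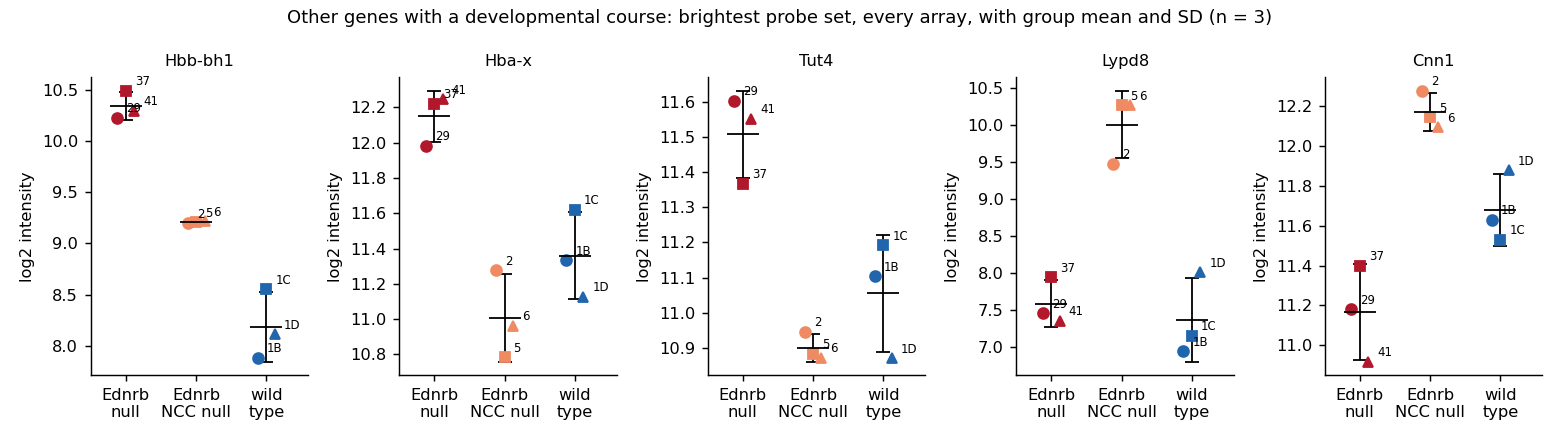
Log2 intensity of the brightest probe set of Hbb-bh1, Hba-x, Tut4, Lypd8 and Cnn1 on every array, with group mean and SD (n = 3) as black bars and a vertical range of its own for each gene. The null lies above both other groups for Hbb-bh1, Hba-x and Tut4 and below both for Cnn1, and the NCC null stands apart in Lypd8.

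Markers of other cell types differed as well. Over all genes, 2.51% were called higher and 2.29% lower in the null against wild type. These shares were 2.92% and 0.984% in the NCC null against wild type, and 1.56% and 3.73% in the null against the NCC null. Of 5 measured enteric crest markers, the cells that Ednrb loss removes from the distal gut, 4 were lower in the null and 2 in the NCC null than in wild type, with mean levels of 6.74 to 6.99, 7.07 to 7.25 and 7.94 to 8.58 in the null, the NCC null and wild type. Between the mutants, 1 crest marker was lower in the null. Mesenchyme markers had 0 of 7 called in any comparison, with means of 12.88 to 13.00 in the null, 12.85 to 13.13 in the NCC null and 13.00 to 13.23 in wild type. Of 7 macrophage markers, 2 were lower in the null than in the NCC null, and 2 were higher in the NCC null than in wild type. Their means were 8.12 to 8.37 in the null, 8.68 to 8.74 in the NCC null and 8.04 to 8.61 in wild type. Of 5 cartilage markers, 2 were higher in the null than in the NCC null, Col2a1 by 1.11 and Col9a1 by 0.73. The median of the 5 between the mutants was only 0.0015, so the list as a whole did not move. Against wild type, 1 of the 5 was higher in the null. The list means were 7.19 to 7.37 in the null, 6.89 to 7.02 in the NCC null and 7.02 to 7.07 in wild type. Mesothelial markers were 8.28 to 8.51 in the null, 8.59 to 8.83 in the NCC null and 6.19 to 8.25 in wild type, and 1 of 6 was higher in the NCC null than in wild type. Among 5 markers of position along the gut, Cdx1 was lower in the null than in the NCC null (-1.81) and Hoxd12 higher (0.57). Against wild type, 1 of the position markers was higher and 1 lower in the null. Endothelial, germ cell and skeletal muscle markers had 0 called by limma in any comparison, and of 7 neuron markers 1 was lower in the null and 2 in the NCC null than in wild type. The part of tissue composition or of the dissected level in the difference of Hmga2 was not tested.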

How the data were processed

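RNA was labelled from 150 ng per sample, per the labels. The intensity values deposited by the authors were RMA output on the linear scale, per the submitters' processing notes. The RMA version was not given in the sources used here. The deposited intensities were converted to log2 without a pseudocount. Of 45101 probe sets, 64 array controls were left out, and 34945 probe sets name 1 gene. RMA pulls dim differences toward 0, and the number of arrays limits the precision.

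With limma 3.58.1 in R 4.3.3 (lmFit, eBayes), 3 genotype means were estimated from the 9 arrays, 2-sided, with Benjamini-Hochberg adjustment over 45037 probe sets, and tested on simulated data. Members are given by every probe set and other genes by the brightest. Beside the members, 24 lists of 206 genes (190 measured) were described by counts and medians. Of each list, up to 4 genes with the smallest p could be named, and every called let-7 target, globin or Igf2bp-bound gene, and for each bright member the 3 genes with the highest Pearson r. The members and lists were chosen with earlier results of these data known. Alternatives covered scaling, filters, variance model, weights, probe set choice, covariates, threshold and each array left out.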

Additional observations from a re-analysis of the deposited data

Results flagged for a closer look

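The mutants differed from each other in Hmga2 by a direct test, although neither passed the test against wild type. The difference of the Ednrb null minus the Ednrb NCC null was 0.64 on probe set 1450780_s_at, 0.59 on 1422851_at and 1.11 on 1450781_at (log2, limma adjusted p = 0.0246, 0.0377 and 0.0481), with the 3 arrays of the null above the 3 of the NCC null on each. The 3 probe sets read 1 gene, and all adjusted p-values lay close to the threshold.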

How the results depend on the processing

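Of the 20 alternatives to the test of the brightest Hmga2 probe set between the mutants, all kept its direction and 14 kept the call. The other called probe sets lost it in 8 of 18 alternatives (1422851_at) and 10 of 18 (1450781_at). The number of member probe sets called in the null against the NCC null was 3; it was 0 under the Actb covariate and 0 under the Y-linked covariate, and 1 with 1 probe set or the mean of all probe sets per gene (of 6 genes). Leaving out 1 array gave 0 to 3, and 0 to 4 for the null against wild type, where all arrays gave 0 and an adjusted p under 0.10 gave 1. For the NCC null against wild type it was 0 in every alternative. Over all probe sets, the calls for the null against wild type were 2265, with 539 under the Actb covariate, 917 with the brightest probe set per gene, 982 with the mean per gene and 1330 to 2358 without 1 array. The calls for the NCC null against wild type were 1611, with 958 under the Y-linked covariate, 2871 at an adjusted p under 0.10, 902 with the brightest, 932 with the mean per gene, 1042 in a fit of only those groups and 716 to 1971 without 1 array. Between the mutants they were 1984, with 283 under the Actb and 993 under the Y-linked covariate, 3164 at the looser threshold, 3709 with array weights, 1187 with the brightest, 1216 with the mean per gene and 866 to 2061 without 1 array.

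Differences that turned in sign were all small and not called, and the cause was not tested. For Igf2bp1 in the null against wild type (0.01) the values were -0.032 with quantile normalization, -0.0094 with array weights, -0.018 with the mean per gene, -0.11 with the Actb covariate and -0.12 to 0.21 without 1 array. For Igf2bp1 in the NCC null against wild type they were -0.32 to 0.014 without 1 array. For Igf2bp3 in the NCC null against wild type (0.04) they were -0.0055 with quantile normalization, -0.014 with the Y-linked covariate and -0.022 to 0.14 without 1 array, and between the mutants -0.012 to 0.14. Lin28a in the NCC null against wild type was 0.062 with the mean per gene, and in the null against wild type -0.013 to 0.10 without 1 array. Lin28b between the mutants was -0.082 to 0.044 without 1 array. Trim71 in the NCC null against wild type (0.00) was -0.091 with the mean per gene and -0.17 to 0.16 without 1 array. The dimmest Hmga2 probe set, 1446196_at, in the NCC null against wild type (-0.03) was 0.00080 with the Actb covariate, 0.20 with the Y-linked covariate and -0.34 to 0.26 without 1 array. Between the mutants, 1446196_at was called in a fit of only those groups (adjusted p = 0.0387).

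Between the mutants, the count of epithelial genes lower in the null (7) was 4 to 7 without 1 array and 2 with the Actb covariate, and the count of embryonic globins higher (2) was 2 and 1. These alternatives, like the extra Hmga2 and Trim71 probe sets, were chosen after seeing the data. No paired analysis was possible because the array labels are not shared between genotypes. With 3 arrays per group and a single probe set for Lin28b, differences in the dim genes are beyond what these arrays can measure.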
